A study of Mus musculus with 11 samples.

Results

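The BCL2 family decides whether the outer membrane of the mitochondrion is opened during apoptosis, and 10 of its genes were described across islets treated with azoramide or with its solvent. The genes were picked by name: the BH3-only genes Bbc3, Pmaip1, Bcl2l11, Bad and Bid, the effectors Bax and Bak1, and the anti-apoptotic genes Bcl2, Bcl2l1 and Mcl1. They are 10 of the 32285 genes in the count table, and all 10 were among the 15093 genes that passed the filter on low counts. Pancreatic islets of mice aged 16 weeks, all fed a high-fat diet for 4 weeks, were exposed for 24 h to 10 µM azoramide or to DMSO, and their RNA was sequenced. Azoramide is a small molecule that modulates protein folding in the endoplasmic reticulum. The 4 groups were labelled knockout (genotype beta ZKO_Mip, a deletion of Zzef1 in beta cells per the labels) with azoramide (3 libraries), labelled knockout with DMSO (2 libraries), littermate controls with azoramide (3 libraries) and littermate controls with DMSO (3 libraries). Islets of 3 or more mice of one genotype went into each sample, the deletion would act in beta cells while islets hold other cells too, and the labels do not say what Mip stands for or whether samples of a genotype share mice. P-values therefore measure the spread between pools, which may in part be technical.

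In the intrinsic pathway of apoptosis, BH3-only proteins sense damage or stress and either bind the anti-apoptotic proteins or activate BAX and BAK directly. BAX and BAK then form pores through which cytochrome c leaves the mitochondrion, and cytochrome c assembles the apoptosome that activates caspases. In beta cells, BIM (the product of Bcl2l11) and PUMA (the product of Bbc3) are known mediators of death under cytokines, lipids and endoplasmic reticulum stress. Much of the family's activity is set by binding, cleavage, phosphorylation and protein turnover, none of which RNA counts measure.

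The promoters of the 2 members that fell in both genotypes, Bbc3 and Bcl2l11, and of Bax, which rose in both, are printed so that their make-up can be compared. Each is the 250 bases before the RefSeq start site on GRCm38.p6, 5′ to 3′ on the gene's own strand, and capitals mark motif matches on either strand.
Bbc3 (chr7:16309333-16309582, plus strand): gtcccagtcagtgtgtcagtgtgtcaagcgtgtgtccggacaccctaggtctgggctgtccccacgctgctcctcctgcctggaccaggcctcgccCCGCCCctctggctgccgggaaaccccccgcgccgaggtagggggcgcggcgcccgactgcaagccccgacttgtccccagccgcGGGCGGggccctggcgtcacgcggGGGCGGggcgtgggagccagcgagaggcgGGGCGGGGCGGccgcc
Bcl2l11 (chr2:128125788-128126037, plus strand): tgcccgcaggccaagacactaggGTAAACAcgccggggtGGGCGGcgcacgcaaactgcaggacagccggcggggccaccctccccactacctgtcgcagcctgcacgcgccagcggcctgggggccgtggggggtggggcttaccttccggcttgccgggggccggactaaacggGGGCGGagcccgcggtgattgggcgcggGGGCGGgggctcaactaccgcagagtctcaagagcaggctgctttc
Bax (chr7:45466899-45467148, minus strand): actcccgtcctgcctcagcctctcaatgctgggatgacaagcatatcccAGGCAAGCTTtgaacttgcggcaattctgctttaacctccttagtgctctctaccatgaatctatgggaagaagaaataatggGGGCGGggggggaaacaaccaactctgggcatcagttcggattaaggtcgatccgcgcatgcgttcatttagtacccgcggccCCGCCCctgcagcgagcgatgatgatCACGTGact
The motifs searched are ones bound by factors known to act on these genes: the GC box GGGCGG, the FOXO core GTAAACA, the C/EBP-ATF element TGATGCAA, the E-box CACGTG and the p53 half-site. Bbc3 held 5 GC boxes, the last pair sharing 1 base, and Bcl2l11 held 3 GC boxes and 1 FOXO core that starts at position -227 from the start site. Bax held 2 GC boxes, 1 E-box and 1 p53 half-site, the last shown as the run of 10 capitals. Of all 32851 RefSeq mouse windows of this length, 32.7% held a GC box, 3.17% a FOXO core, 0.791% a C/EBP-ATF element, 6.02% an E-box and 7.13% a p53 half-site. The windows of 9 of the 10 members were examined, and Pmaip1 was left out. Of these 9 windows, 7 held a GC box. Bcl2 held 7 GC boxes, and Bak1 and Bcl2l1 held none. The GC content was 76.4% in the Bbc3 window, 72.0% in that of Bcl2l11 and 54.0% in that of Bax. Bid, which also rose in both genotypes, had 63.6% GC and 3 GC boxes. The other windows had 62.8% (Bad, 3 GC boxes), 64.4% (Mcl1, 1 GC box), 74.8% (Bcl2), 58.4% (Bak1) and 47.6% (Bcl2l1). A link between make-up and direction of change was not tested. The Bbc3 window lies inside the span GENCODE gives the gene, since a longer transcript starts before it. These matches describe letters in a window and show no binding.

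Library totals ran from 16832800 to 19501813 counts and 17687 to 17999 genes were detected per library. Zzef1 was not depleted in the libraries labelled knockout as a whole and did not pass the test between genotypes. In those libraries it lay below every control library with DMSO and above every control library with azoramide. It was at 68.7 to 77.7 CPM (counts scaled to a common library total, adjusted by TMM) in the labelled knockout libraries with azoramide and 79.4 and 83.5 CPM with DMSO, against 64.3 to 68.1 CPM with azoramide and 85.4 to 110 CPM with DMSO in the controls, a log2 change of 0.13 with azoramide (edgeR adjusted p = 0.968) and -0.26 with DMSO (edgeR adjusted p = 0.999). The genotype is therefore written as labelled knockout throughout. Azoramide against DMSO changed Zzef1 by -0.55 in control islets (edgeR adjusted p = 3.46e-05) and by -0.16 in the labelled knockout libraries (edgeR adjusted p = 0.153). With an offset for exon length and GC content the change in control islets was -0.20, uncalled. The sources used here do not say which exons the deletion removes, so counts over the whole gene may not show it. Azoramide and DMSO libraries differed in composition beyond these genes: mitochondrial transcripts took 7.16 to 8.51% of counts with azoramide and 5.17 to 5.50% with DMSO, and ribosomal protein genes took 2.81 to 3.09% with azoramide and 1.84 to 1.96% with DMSO. Summed alpha cell markers (4 of 4 detected) reached 23500 to 27600 CPM with azoramide and 14300 to 16400 CPM with DMSO, beta cell markers (6 of 6 detected) 137000 to 190000 CPM with azoramide and 128000 to 140000 CPM with DMSO, and endothelial markers (5 of 5 detected) 211 to 272 CPM with azoramide and 287 to 299 CPM with DMSO. The PP cell marker was at 1770 to 2130 CPM with azoramide and 1040 to 1760 CPM with DMSO, and the 5 mesenchymal markers, all detected, summed to 10.1 to 17.4 CPM with azoramide and 16.2 to 22.9 CPM with DMSO. Acinar markers (6 of 6 detected) varied widely within groups, from 836 to 4990 CPM with azoramide and from 493 to 4220 CPM with DMSO. The part of these shifts in the results that follow was not tested. In whole islets, fewer cells of a type and less RNA per cell cannot be told apart.

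Per length of exon, the anti-apoptotic Mcl1 and Bcl2l1 and the effector Bax were the abundant members, and Bcl2 was the scarcest. Mcl1, whose short-lived protein holds BAK and BIM in check, averaged 41.2 RPKM (CPM per kilobase of exon) over the 11 libraries, with a range of 39.3 to 44.2. Bax followed at 32.4 RPKM (27.0 to 37.1) and Bcl2l1, which encodes BCL-XL, at 14.8 RPKM (12.1 to 18.5). Next came Bad at 5.26, Bbc3 at 5.02 and Bak1 at 4.79 RPKM, whose ranges over the 11 libraries overlap. The place of Bbc3 depended on treatment. With DMSO, Bbc3 (5.615 to 6.928) was above Bad (4.468 to 4.895) and Bak1 (3.795 to 5.203). With azoramide, Bbc3 (3.309 to 4.905) was below Bad (5.18 to 6.287) and overlapped Bak1. Pmaip1 at 2.93, Bid at 2.73 and Bcl2l11 at 2.14 RPKM also overlapped over the 11 libraries and within the DMSO libraries. With azoramide, Pmaip1 (1.994 to 4.07) and Bid (2.75 to 3.905) were above Bcl2l11 (1.682 to 1.859). Bcl2 averaged 0.412 RPKM (0.302 to 0.583), below the range of every other member, with 47 to 104 counts per library. RPKM used the union of all annotated exons, so genes with a long annotated exon set such as Bcl2 (9157 bases) and Bcl2l11 (8029 bases) come out low if islets use shorter transcripts.

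**Figure D1:**
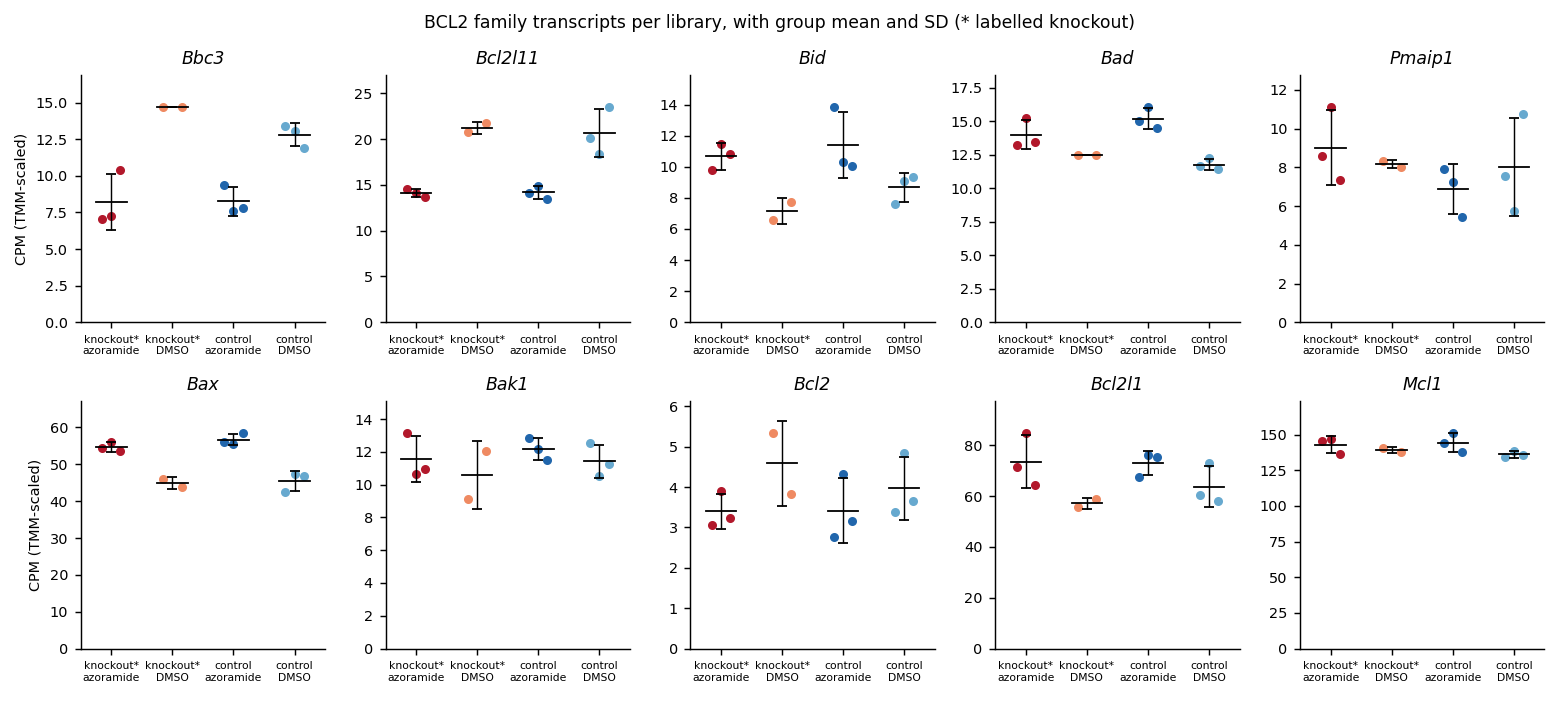
Level of each member in every library, in TMM-scaled CPM, with a panel for each of the 10 genes, libraries as points by group, long lines at the group means and bars for 1 SD. Bbc3 and Bcl2l11 sit lower with azoramide than with DMSO in both genotypes, and Bax sits higher.

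Azoramide moved members of the family in both directions. Bbc3 and Bcl2l11 fell and Bax and Bid rose in both genotypes, Bcl2l1 rose in the labelled knockout libraries, and Bad rose in control islets. In each genotype 5 of the 10 members passed the test, 3 higher and 2 lower. Of all tested genes, 39.8% passed in the labelled knockout libraries (20.0% higher, 19.8% lower) and 39.0% in control islets (19.3% higher, 19.8% lower; edgeR quasi-likelihood test, Benjamini-Hochberg adjusted p under 0.05 over 15093 genes). Azoramide and DMSO libraries did not overlap for 6 members in the labelled knockout libraries (4 higher, 2 lower) and for 5 members in control islets (3 higher, 2 lower). Of all tested genes, 61.6% did not overlap in the labelled knockout libraries (30.2% higher, 31.4% lower) and 48.4% in control islets (23.8% higher, 24.6% lower). A share of 5 in 10 among so many changed genes is no result about the family as such. The median log2 change over the members was 0.13 in the labelled knockout libraries and 0.09 in control islets, and over all tested genes -0.00323 in the labelled knockout libraries and -0.0201 in control islets. Of the genes called over the whole table, 50.2% were higher in the labelled knockout libraries and 49.3% in control islets. With plain library totals the share was 29.1% in the labelled knockout libraries and 24.8% in control islets, and with an offset for exon length and GC content 58.7% in the labelled knockout libraries and 60.5% in control islets, so a direction below is relative to the scaling.

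Among the BH3-only genes, Bbc3 encodes PUMA, a p53 target that binds every anti-apoptotic member, and lies at chr7:16308393-16318205 (GRCm38, plus strand). In the labelled knockout libraries Bbc3 was at 7.03, 7.23 and 10.4 CPM with azoramide, against 14.7 and 14.7 CPM with DMSO. In control islets Bbc3 was at 9.40, 7.61 and 7.78 CPM with azoramide, against 13.4, 13.1 and 11.9 CPM with DMSO. Every azoramide library was below every DMSO library, and replicate 3 was the highest of the labelled knockout azoramide libraries. The log2 change of Bbc3 was -0.84 (SE 0.16, edgeR adjusted p = 5.47e-04), a -44.1% change, in the labelled knockout libraries. It was -0.63 (SE 0.15, edgeR adjusted p = 0.00273), a -35.5% change, in control islets. Bbc3 has GC-rich exons (67.1% GC), and with an offset for exon length and GC content its change was -0.45 in the labelled knockout libraries, still called, and -0.34 in control islets, where the call was lost. Over the 20 settings edgeR or DESeq2 adjusted p ran from 4.3e-06 to 0.0448 in the labelled knockout libraries and from 2.34e-04 to 0.103 in control islets.

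Bcl2l11 encodes BIM, which is induced by FOXO factors and by the CHOP branch of the unfolded protein response and can activate BAX directly, and lies at chr2:128126038-128162547 (plus strand). Bcl2l11 was in the labelled knockout libraries at 14.5, 14.1 and 13.7 CPM with azoramide, against 20.8 and 21.7 CPM with DMSO. In control islets it was at 14.1, 14.9 and 13.5 CPM with azoramide, against 20.1, 18.3 and 23.5 CPM with DMSO. The 6 azoramide libraries lay within 13.5 to 14.9 CPM, below all 5 DMSO libraries. The log2 change of Bcl2l11 was -0.59 (SE 0.11, adjusted p = 5.31e-04) in the labelled knockout libraries and -0.54 (SE 0.10, adjusted p = 5.09e-04, edgeR) in control islets. Bcl2l11 passed the test in both genotypes under all 20 settings tried, at -0.74 to -0.39 in the labelled knockout libraries and -0.71 to -0.36 in control islets.

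Bid encodes a BH3-only protein that caspase-8 cleaves into its active form, and lies at chr6:120891930-120916853 (minus strand). Bid was in the labelled knockout libraries at 9.76, 11.4 and 10.8 CPM with azoramide, against 6.57 and 7.76 CPM with DMSO. In control islets it was at 13.9, 10.3 and 10.1 CPM with azoramide, against 7.63, 9.12 and 9.32 CPM with DMSO. The azoramide and DMSO libraries did not overlap in either genotype, with the narrower gap in control islets. For Bid the log2 change was 0.57 (SE 0.17, adjusted p = 0.0126) in the labelled knockout libraries and 0.39 (SE 0.15, adjusted p = 0.0469, edgeR) in control islets. The call in control islets held in 6 of 20 settings and was lost when any 1 of 8 libraries was left out, among them control azoramide replicate 1 (0.24) and control DMSO replicates 1 (0.31) and 3 (0.44), each of the 5 labelled knockout libraries giving 0.39. With plain library totals it was lost in both genotypes (0.42 in the labelled knockout libraries, 0.22 in control islets), and in the labelled knockout libraries also without DMSO replicate 1 (0.46). Of the exonic bases of Bid, 17.7% are shared with Bcl2l13 on the other strand, and as no source used here gives the strand setting, reads there cannot be told apart.

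Bad, whose product is held inactive by AKT phosphorylation and 14-3-3 binding, lies at chr19:6941861-6951899 (plus strand). Bad was in the labelled knockout libraries at 13.2, 15.2 and 13.5 CPM with azoramide, against 12.5 and 12.5 CPM with DMSO. In control islets Bad was at 15.04, 16.1 and 14.5 CPM with azoramide, against 11.6, 12.2 and 11.4 CPM with DMSO. The groups did not overlap in either genotype, but the gap was small in the labelled knockout libraries. For Bad the log2 change was 0.16 (SE 0.12, adjusted p = 0.296) in the labelled knockout libraries and 0.37 (SE 0.10, adjusted p = 0.00928, edgeR) in control islets. With plain library totals Bad was at 0.0053 in the labelled knockout libraries and 0.20 in control islets, uncalled in both, and under the length and GC offset at 0.35 in the labelled knockout libraries and 0.49 in control islets, called in both. The difference between the reported changes was -0.21 (95% interval -0.54 to 0.12, edgeR adjusted p = 0.999), so the genotypes were not shown to differ. Gpr137, on the other strand, shares 20.5% of the exonic bases of Bad.

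Pmaip1 (chr18:66458533-66465565, plus strand) encodes NOXA, which binds MCL1 and is induced by p53 and by ATF4. Pmaip1 was in the labelled knockout libraries at 8.58, 11.1 and 7.34 CPM with azoramide, against 8.31 and 8.01 CPM with DMSO. In control islets it was at 7.93, 7.26 and 5.45 CPM with azoramide, against 7.57, 5.75 and 10.8 CPM with DMSO. The groups overlapped in both genotypes and libraries of the control DMSO group alone spanned most of the range. For Pmaip1 the log2 change was 0.14 (95% interval -0.36 to 0.65) in the labelled knockout libraries and -0.22 (-0.69 to 0.25) in control islets, so changes of moderate size in either direction could not be told from none.

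Of the effectors, Bax rose and Bak1 did not pass the test. Bax lies at chr7:45461697-45466898 (minus strand). In the labelled knockout libraries Bax was at 54.5, 56.1 and 53.5 CPM with azoramide, against 46.0 and 43.8 CPM with DMSO. In control islets Bax was at 56.1, 55.6 and 58.5 CPM with azoramide, against 42.5, 47.4 and 46.9 CPM with DMSO. All 6 azoramide libraries were above all 5 DMSO libraries. The log2 change of Bax was 0.28 (SE 0.07, adjusted p = 0.00541) in the labelled knockout libraries and 0.32 (SE 0.07, adjusted p = 0.00108, edgeR) in control islets, a rise of 21.8% in the labelled knockout libraries and 24.4% in control islets. With plain library totals Bax was at 0.13 in the labelled knockout libraries and 0.15 in control islets, uncalled in both, while the median of all genes moved to -0.16 in the labelled knockout libraries and -0.19 in control islets. Without labelled knockout DMSO replicate 2 the value in the labelled knockout libraries was 0.25 and uncalled. The annotated gene Gm45808 shares 12.2% of the exonic bases of Bax on the same strand.

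Bak1 encodes the other pore-forming effector, which sits in the mitochondrial membrane before any stress, and lies at chr17:27019810-27029009 (minus strand). Bak1 was at 13.1, 10.6 and 10.9 CPM with azoramide and 9.13 and 12.1 CPM with DMSO in the labelled knockout libraries, and at 12.9, 12.2 and 11.5 CPM with azoramide and 12.5, 10.5 and 11.3 CPM with DMSO in control islets. The groups overlapped in both genotypes. For Bak1 the log2 change was 0.12 (95% interval -0.19 to 0.44) in the labelled knockout libraries and 0.09 (-0.19 to 0.37) in control islets. Ggnbp1, on the other strand, shares 18.2% of the exonic bases of Bak1. That Bax rose and Bak1 did not pass is no test of a difference between them.

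Of the 3 anti-apoptotic genes, 1 passed the test in the labelled knockout libraries and 0 in control islets, though Bcl2l1 passed in control islets under 5 of 20 settings. Bcl2l1, which encodes BCL-XL and lies at chr2:152780668-152831728 (minus strand), was at 71.4, 84.7 and 64.5 CPM with azoramide and 55.7 and 58.8 CPM with DMSO in the labelled knockout libraries. In control islets it was at 67.5, 76.0 and 75.3 CPM with azoramide and 60.5, 72.9 and 57.9 CPM with DMSO. The groups separated in the labelled knockout libraries and overlapped in control islets, where DMSO replicate 2 reached the azoramide range. The log2 change of Bcl2l1 was 0.36 (SE 0.11, adjusted p = 0.0216) in the labelled knockout libraries and 0.19 (SE 0.10, adjusted p = 0.155, edgeR) in control islets. Without control DMSO replicate 2 the value in control islets became 0.30 and passed the test, and the difference between genotypes was 0.17 (95% interval -0.16 to 0.50, edgeR adjusted p = 0.999). In the labelled knockout libraries the call was lost without azoramide replicate 2 (0.25), without DMSO replicate 1 (0.32), without DMSO replicate 2 (0.40) and with plain library totals (0.21). Under the length and GC offset Bcl2l1 passed in both genotypes, at 0.55 in the labelled knockout libraries and 0.34 in control islets. The 6 acinar markers, all detected, summed to 2520, 4990 and 836 CPM with azoramide and 1900 and 493 CPM with DMSO in the labelled knockout libraries, and to 1500, 3880 and 2600 CPM with azoramide and 1110, 4220 and 769 CPM with DMSO in control islets. In the groups of 3 the library highest in acinar markers was also the highest in Bcl2l1. In the 2 labelled knockout DMSO libraries the order was the opposite. The part of acinar cells in the result was not tested.

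Mcl1, at chr3:95658788-95663176 (plus strand), had the smallest SE of the members. Mcl1 was at 146, 147 and 136 CPM with azoramide and 141 and 138 CPM with DMSO in the labelled knockout libraries, and at 144, 151 and 138 CPM with azoramide and 134, 139 and 136 CPM with DMSO in control islets. The log2 change was 0.04 (95% interval -0.09 to 0.17) in the labelled knockout libraries and 0.08 (-0.03 to 0.20) in control islets, with 2394 to 2872 counts per library. Bcl2, the founding member of the family, at chr1:106538178-106714274 (minus strand), was at 3.06, 3.89 and 3.25 CPM with azoramide and 5.34 and 3.83 CPM with DMSO in the labelled knockout libraries. In control islets Bcl2 was at 2.76, 4.32 and 3.17 CPM with azoramide and 3.40, 4.86 and 3.66 CPM with DMSO. Its log2 change was -0.43 (95% interval -0.97 to 0.11) in the labelled knockout libraries and -0.22 (-0.72 to 0.28) in control islets, intervals too wide to separate a fall from none. D630008O14Rik, on the other strand, shares 6.09% of the exonic bases of Bcl2.

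**Figure D2:**
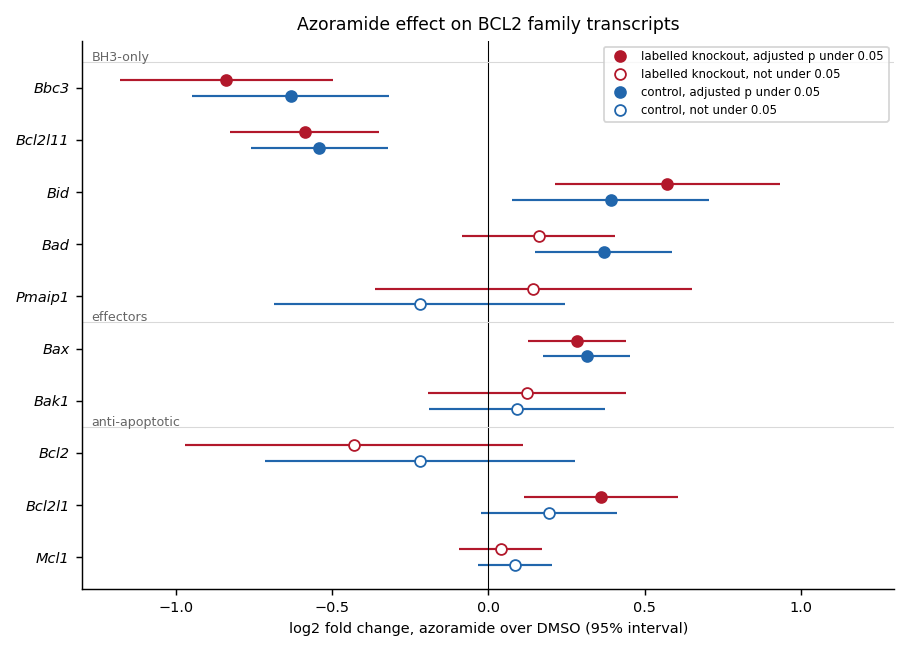
Log2 change of each member with azoramide against DMSO, with 95% intervals, in the labelled knockout libraries and in control islets. The intervals of Bbc3 and Bcl2l11 lie below 0 and those of Bax and Bid above 0 in both genotypes, and those of Mcl1 are the narrowest.

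**Figure D3:**
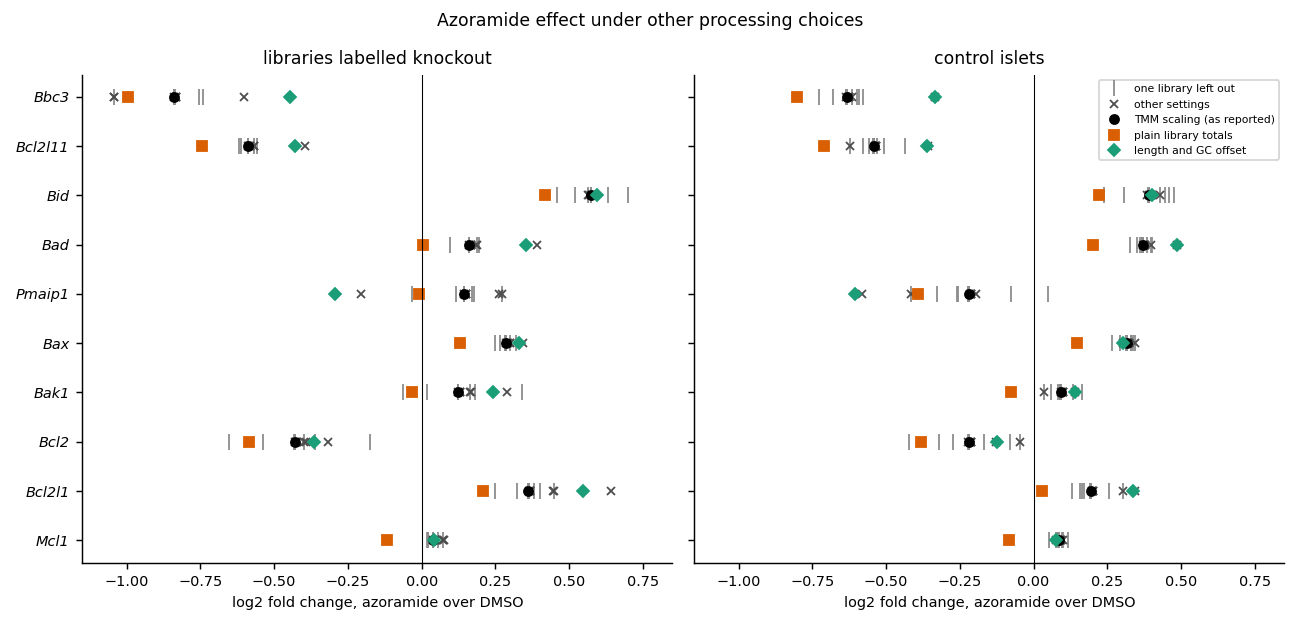
Log2 change of each member with azoramide against DMSO under the 20 settings, with the reported value as a black point, single libraries left out as ticks and other settings as crosses, squares and diamonds. Bbc3 and Bcl2l11 lie below 0 under all of them, while Bak1 and Mcl1 change sign with plain library totals.

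Summed per kilobase within each library, the 2 genes that fell were set against the 3 anti-apoptotic genes, a ratio in which the scaling between libraries cancels. The ratio of Bbc3 plus Bcl2l11 to Bcl2 plus Bcl2l1 plus Mcl1 averaged 0.0976 ± 0.0212 with azoramide (SD, n = 3) and 0.178 ± 0.00283 with DMSO (SD, n = 2) in the labelled knockout libraries. In control islets it averaged 0.0968 ± 0.00997 with azoramide and 0.159 ± 0.00985 with DMSO (SD, n = 3 each). The highest azoramide library, at 0.122, was below the lowest DMSO library, at 0.148. The numerator was picked for having fallen, so no test was made. The ratio of Bax to Bcl2 was 94.5 ± 10.2 with azoramide and 58.2 ± 11.5 with DMSO in the labelled knockout libraries, and 99.9 ± 22.5 with azoramide and 68.0 ± 9.80 with DMSO in control islets, where the lowest azoramide library (74.8) was just above the highest DMSO library (74.5). Bax had risen in both genotypes, and Bcl2, at 47 to 104 counts per library, was called in neither. The ratio of Bax to Bcl2 was therefore not tested either, and its size depends on the long annotated exon set of Bcl2. The ratio of Bax to Bcl2l1 overlapped, at 2.19 ± 0.242 with azoramide and 2.29 ± 0.170 with DMSO in the labelled knockout libraries, and 2.27 ± 0.145 with azoramide and 2.10 ± 0.240 with DMSO in control islets.

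**Figure D4:**
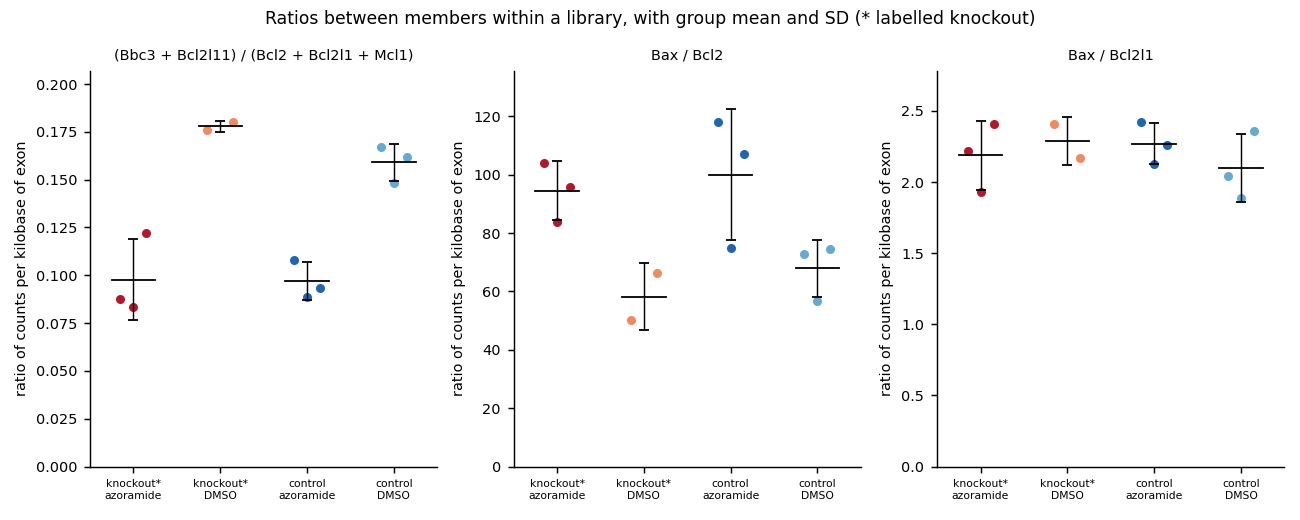
Within-library ratios of pro-apoptotic to anti-apoptotic members, per kilobase of exon, with libraries as points by group. The ratio of Bbc3 plus Bcl2l11 to the anti-apoptotic genes is at most 0.122 in the 6 azoramide libraries and at least 0.148 in the 5 DMSO libraries, while Bax over Bcl2l1 overlaps.

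Genotype as labelled moved no member past the test. With DMSO, 0 of 10 members were called in labelled knockout against control libraries, beside 0% of all tested genes by edgeR (531 genes had an unadjusted p under 0.05, none of them a member, and DESeq2 called 3 genes). With azoramide, 0 of 10 were called beside 0% of all genes (754 genes had an unadjusted p under 0.05, none of them a member, and DESeq2 called 2 genes). Bbc3 with DMSO was at 14.7 and 14.7 CPM in the labelled knockout libraries against 11.9 to 13.4 CPM in control libraries, a log2 change of 0.20 (95% interval -0.14 to 0.53, edgeR adjusted p = 0.999). Bad did not overlap either, at 12.5 and 12.5 CPM in the labelled knockout libraries against 11.4 to 12.2 CPM in control libraries, a change of 0.09, so 2 members did not overlap, both higher, beside 19.4% of all genes (9.87% higher, 9.57% lower) in this comparison of 2 libraries with 3. With azoramide 0 members did not overlap, beside 11.1% of all genes. Pmaip1 with azoramide had the largest log2 change between genotypes among the members, 7.34 to 11.1 CPM in labelled knockout against 5.45 to 7.93 CPM in control libraries, a log2 change of 0.39 (95% interval -0.07 to 0.86, edgeR adjusted p = 0.968). The other members changed by -0.28 to 0.20 with DMSO and by -0.12 to 0.01 with azoramide.

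The response to azoramide was not shown to depend on the labelled genotype for any member. The interaction was called for 0 of 10 members and 0% of all genes by edgeR (563 genes had an unadjusted p under 0.05, none of them a member). The 95% interval of the difference was -0.67 to 0.26 for Bbc3, -0.37 to 0.28 for Bcl2l11, -0.24 to 0.18 for Bax and -0.33 to 1.05 for Pmaip1 on the log2 scale. The intervals are wide enough that moderate differences between genotypes cannot be told from none.

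The rest of the cell death machinery is given from lists of named genes. Of all tested genes, 39.8% were called with azoramide in the labelled knockout libraries and 39.0% in control islets. The lists are small, and no list count was tested against these shares. Among 12 other BCL2 family genes tested, 2 were higher and 1 lower with azoramide in the labelled knockout libraries, and 1 was higher and 1 lower in control islets. Bmf, a BH3-only gene linked to the cytoskeleton, fell by 0.48 on the log2 scale in the labelled knockout libraries and by 0.51 in control islets, with edgeR adjusted p of 0.0429 in the labelled knockout libraries and 0.0196 in control islets. The call of Bmf was lost in 9 of 20 settings in the labelled knockout libraries and in 6 of 20 in control islets. Among them were the length and GC offset (-0.23 in the labelled knockout libraries, -0.31 in control islets) and single control libraries left out. In the labelled knockout libraries it was also lost without azoramide replicate 1 or 2 or DMSO replicate 2, by the DESeq2 Wald test and with the replicate block. Bcl2a1b, an anti-apoptotic gene of blood cells, rose by 1.22 in the labelled knockout libraries and by 0.998 in control islets. It had 20 to 82 counts per library, and it has near-identical copies among which reads may be split. The copy Bcl2a1a, with 3 to 21 counts, was at 1.72 in the labelled knockout libraries (called in 10 of 20 settings) and 0.79 in control islets, uncalled. The copy Bcl2a1d was at 1.41 in the labelled knockout libraries and 0.062 in control islets, uncalled in both as reported. Under that offset Bcl2a1b was uncalled in both, at 0.53 in the labelled knockout libraries and 0.38 in control islets, and its call in the labelled knockout libraries was also lost without DMSO replicate 2. The 5 macrophage markers summed to 52.0 to 91.1 CPM with azoramide and 38.6 to 48.4 CPM with DMSO, and their part in this result was not tested. Hrk and Bcl2l10 had too few counts to be tested.

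Downstream of BAX and BAK, 15 genes of the apoptosome and caspases were tested. Of these, 4 were higher and 1 lower in the labelled knockout libraries, beside 39.8% of all tested genes called. In control islets 3 were higher and 0 lower, beside 39.0% of all tested genes. The median log2 change of the list was 0.20 in the labelled knockout libraries and 0.13 in control islets. Cycs, which encodes the cytochrome c released through BAX and BAK pores and also carries electrons in respiration, rose by 1.09 in the labelled knockout libraries and by 0.84 in control islets, and was called in all 20 settings in both, with the smallest values of 0.72 in the labelled knockout libraries and 0.52 in control islets under the length and GC offset. Diablo, whose product relieves caspases of their inhibitors, rose by 0.49 in the labelled knockout libraries and by 0.23 in control islets, where plain library totals gave 0.059, uncalled, and the call was also lost without DMSO replicate 1. Casp6, an executioner caspase, rose by 0.72 in the labelled knockout libraries (uncalled without DMSO replicate 1 there), and Apaf1, the scaffold of the apoptosome, was at -0.31 in control islets with an edgeR adjusted p of 0.0624. Of 6 caspase inhibitors, 2 were higher and 1 lower in the labelled knockout libraries, and 3 were higher and 2 lower in control islets. Birc3, an NF-kappaB target, rose by 0.80 in the labelled knockout libraries and by 0.46 in control islets, where plain library totals gave 0.29, uncalled. Birc6, a giant ubiquitin ligase that binds caspases, fell by 0.21 in the labelled knockout libraries and by 0.28 in control islets. Cflar, which blocks caspase-8, changed by -0.19 in the labelled knockout libraries (edgeR adjusted p = 0.0505) and by -0.30 in control islets (edgeR adjusted p = 0.00202). Under the length and GC offset neither was called, Birc6 being at -0.044 in the labelled knockout libraries and -0.050 in control islets, and Cflar at -0.022 in the labelled knockout libraries and -0.11 in control islets.

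Known regulators of the members moved in both directions. Their counts stand beside 39.8% of all tested genes called in the labelled knockout libraries and 39.0% in control islets. Of 15 genes of p53 and its targets, 4 were higher and 2 lower in the labelled knockout libraries, and 2 were higher and 2 lower in control islets. Ccng1, a cyclin-like p53 target, rose by 0.46 in the labelled knockout libraries and by 0.51 in control islets, and the length and GC offset gave 0.055, uncalled, in the labelled knockout libraries and 0.17, still called, in control islets. Zmat3, an RNA-binding p53 target, fell by 0.51 in the labelled knockout libraries and by 0.46 in control islets and was called in all 20 settings in both, with smaller values of -0.31 in the labelled knockout libraries and -0.24 in control islets under that offset. Fas, a death receptor, rose by 1.92 in the labelled knockout libraries and by 1.46 in control islets, with 14 to 26 counts per library with azoramide and 5 to 10 with DMSO. Fas was uncalled under the offset, at 1.46 in the labelled knockout libraries and 1.05 in control islets, without either DMSO library in the labelled knockout libraries, and in control islets without azoramide replicate 1 or DMSO replicate 1 or 3. Of 10 genes of the CHOP and ATF4 arm, 2 were higher and 4 lower in the labelled knockout libraries, and 2 were higher and 3 lower in control islets. Ddit3, which encodes CHOP, rose by 0.69 in the labelled knockout libraries and by 0.49 in control islets, the call being lost in 2 of 20 settings in the labelled knockout libraries and in 6 of 20 in control islets, in both under the offset (0.48 in the labelled knockout libraries, 0.27 in control islets), without DMSO replicate 1 in the labelled knockout libraries and, in control islets, without any 1 azoramide library, with plain library totals (0.32) and with no filter on low counts. Ern1, which encodes the stress sensor IRE1, fell by 0.45 in the labelled knockout libraries and by 0.47 in control islets, and the offset gave -0.19, uncalled, in the labelled knockout libraries and -0.22, still called, in control islets. Eif2ak3, which encodes the stress sensor PERK, fell by 0.26 in the labelled knockout libraries and by 0.36 in control islets. The offset gave Eif2ak3 -0.056, uncalled, in the labelled knockout libraries and -0.17 in control islets, where the call was lost once the replicate block was added.

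Of 16 upstream regulators tested, 4 were higher and 5 lower in each genotype. The share of all tested genes called was 39.8% in the labelled knockout libraries and 39.0% in control islets. Vdac2, which encodes a mitochondrial channel that binds BAK, rose by 0.63 in the labelled knockout libraries and by 0.52 in control islets. Ywhaq, which encodes a 14-3-3 protein of the kind that holds BAD, rose by 0.53 in the labelled knockout libraries and by 0.55 in control islets, and the offset gave 0.33 in the labelled knockout libraries and 0.37 in control islets, called in both. Huwe1, which encodes a ubiquitin ligase of MCL1, fell by 0.50 in the labelled knockout libraries and by 0.46 in control islets, and was at -0.32 in the labelled knockout libraries and -0.23 in control islets under the length and GC offset, called in both. Foxo1 and Foxo3, known activators of Bcl2l11 and Bbc3, are named after their values were seen. Their part in the changes of Bcl2l11 and Bbc3 was not tested. Nor was that of Ddit3, which rose in both genotypes, in the change of Bcl2l11. Foxo1 fell by 0.50 in the labelled knockout libraries and by 0.56 in control islets, and Foxo3 fell by 0.64 in the labelled knockout libraries and by 0.54 in control islets. Under the length and GC offset Foxo1 was still called, at -0.34 in the labelled knockout libraries and -0.37 in control islets, and Foxo3 was not, at -0.17 in the labelled knockout libraries and -0.13 in control islets. No gene of any list was called by edgeR between genotypes or in the interaction as reported. One setting, without labelled knockout azoramide replicate 3 and control DMSO replicate 2, called 1 gene of the CHOP and ATF4 arm lower in labelled knockout than in control libraries with azoramide.

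**Figure D5:**
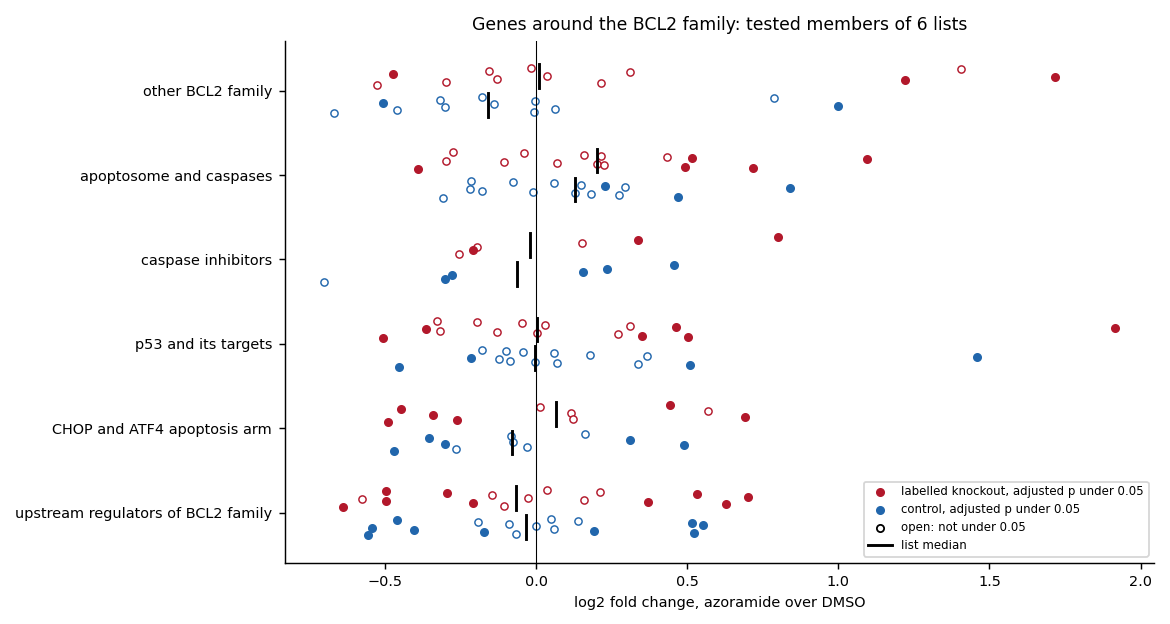
Log2 change with azoramide against DMSO of each tested gene in the 6 lists, labelled knockout above control, with filled points for called genes and black lines at the list medians. Cycs reaches 1.09 in the labelled knockout libraries and 0.84 in control islets, and genes lie on either side of 0 in every list.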

How the data were processed

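RNA from 11 mouse islet samples was sequenced on the DNBSEQ-T7 platform, per the labels. The deposited table holds unnormalized read counts of 32285 genes. STAR 2.7.2a, the build mm10 and DESeq2 are named in the submitters' processing notes; no source used here gives the counting tool, its annotation or its strand setting. Groups came from the sample titles. One model of all 4 groups was fitted with edgeR 4.0.16 (R 4.3.3): group-wise filter on low counts (15093 genes kept), TMM factors, robust quasi-likelihood test, Benjamini-Hochberg adjustment over all tested genes, threshold 0.05. SE was taken as the size of the log2 change over the root of F. CPM used TMM-scaled totals. RPKM and loci used GENCODE M21 exons on GRCm38, and promoters came from RefSeq GRCm38.p6. Alternatives used DESeq2 1.42.0 size factors and Wald test, plain totals, no filter, only the groups compared, libraries left out, a replicate block, and an exon length and GC offset (mgcv 1.9.3). The test was checked on simulated counts. Within groups no libraries agreed within sampling noise. The 10 members and the 6 lists were chosen with earlier results of these data known. Named were all members, Zzef1, and from each list up to 4 genes of smallest p per azoramide comparison. One gene that this rule names is not reported here.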

Additional observations from a re-analysis of the deposited data

How the results depend on the processing

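Counts of genes called for azoramide with single libraries left out ran from 4015 to 6507 in the labelled knockout libraries and from 4820 to 6103 in control islets, and counts of members from 3 to 5 in the labelled knockout libraries and from 4 to 6 in control islets, the 3 coming without labelled knockout DMSO replicate 1 or 2. With the length and GC offset 3773 genes were called in the labelled knockout libraries and 3552 in control islets, and 3665 in control islets with the replicate block added. With plain library totals 2 of 10 members were called in each genotype, against a median of all genes of -0.16 in the labelled knockout libraries and -0.19 in control islets; no further setting moved a member count by over 1.5 times. Genes called between genotypes numbered 0 to 3 with DMSO and 0 to 3 with azoramide with single libraries left out, and 0 to 1 in the interaction. With DMSO they were 2 without a filter, 3 by DESeq2, 1 with the replicate block and 1 with offset and block, with azoramide 2 by DESeq2, and in the interaction 1 with the block and 2 with offset and block. Without labelled knockout azoramide replicate 3 and control DMSO replicate 2 they were 2 with DMSO, 84 with azoramide and 6 in the interaction, none of them a member. For pairing, each library's deviations of log CPM from its group mean were correlated between same-numbered azoramide and DMSO libraries. The correlations of deviations were 0.0366 and -0.144 in labelled knockouts and 0.0625, 0.107 and -0.0162 in controls. In the group of 2 labelled knockout DMSO libraries the deviations mirror each other, so the labelled knockout values are not independent. The numbers are not taken to pair samples. With the replicate block 6162 genes and 5 members were called in the labelled knockout libraries and 6004 genes and 5 members in control islets, where Bid (0.38) was lost and Bcl2l1 (0.20) gained. Of the list counts for azoramide, 389 of 480 stayed within 1.5 times. The causes of these changes were not tested. Among the members a change of sign came for uncalled values alone. With plain library totals, the sign turned for azoramide in control islets (Bak1 -0.077, Mcl1 -0.082), azoramide in the labelled knockout libraries (Pmaip1 -0.0097, Bak1 -0.031, Mcl1 -0.12), genotype with DMSO (Bax 0.0086), genotype with azoramide (Bbc3 0.034, Bcl2l11 0.037, Bcl2 0.030, Mcl1 0.028). With the length and GC offset, the sign turned for azoramide in the labelled knockout libraries (Pmaip1 -0.29), genotype with azoramide (Bbc3 0.043), the interaction (Bax 0.027). With that offset and the replicate block, the sign turned for azoramide in the labelled knockout libraries (Pmaip1 -0.20), genotype with azoramide (Bbc3 0.043), the interaction (Bax 0.040). Without labelled knockout azoramide replicate 3 and control DMSO replicate 2, the sign turned for genotype with DMSO (Pmaip1 -0.17, Bcl2l11 -0.037, Bax 0.0067), genotype with azoramide (Bcl2l11 0.016, Bcl2 0.023, Mcl1 0.019), the interaction (Bcl2l11 0.053). With single libraries left out, uncalled values fell on both sides of 0. For azoramide in control islets these were Pmaip1 -0.42 to 0.049. For azoramide in the labelled knockout libraries these were Pmaip1 -0.034 to 0.27, Bak1 -0.062 to 0.34. For genotype with DMSO these were Pmaip1 -0.17 to 0.30, Bak1 -0.32 to 0.079, Bcl2 -0.055 to 0.42, Bax -0.070 to 0.013, Bcl2l11 -0.037 to 0.15. For genotype with azoramide these were Bbc3 -0.21 to 0.093, Bcl2 -0.15 to 0.20, Bcl2l1 -0.10 to 0.098, Bcl2l11 -0.039 to 0.034, Mcl1 -0.044 to 0.020, Bid -0.18 to 0.059. For the interaction these were Bak1 -0.15 to 0.25, Bax -0.065 to 0.017, Bcl2 -0.43 to 0.046, Bcl2l11 -0.15 to 0.033. Bcl2 had 47 to 104 counts per library, the fewest of the members.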

Other observations

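Within each library, Bbc3 was also set against single genes, per kilobase of exon. The ratio of Bbc3 to Mcl1 was 0.0776 to 0.123 with azoramide and 0.168 to 0.172 with DMSO in the labelled knockout libraries, and 0.0811 to 0.105 with azoramide and 0.142 to 0.161 with DMSO in control islets, with no overlap. The ratio of Bbc3 to Pmaip1, another BH3-only gene induced by p53, was 0.836 to 1.82 with azoramide and 2.27 to 2.36 with DMSO in the labelled knockout libraries, and 1.35 to 1.84 with azoramide and 1.43 to 2.93 with DMSO in control islets, where the groups overlapped. Bbc3 was chosen for having fallen, so no test was made.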
